A study of Mus musculus with 6 samples.

Results

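The respiratory chain genes of a mouse acute myeloid leukaemia (AML) cell line were examined after treatment with DB2313, a small molecule known as an inhibitor of PU.1. PU.1 is an ETS family transcription factor of blood cells, and Spi1 is its gene. Members were all genes with a single annotated symbol that starts with Nduf or Uqcr, is Sdha, Sdhb, Sdhc or Sdhd, or starts with Cox followed by a digit from 4 to 8. There were 71 such genes among the 22180 measured, found on 76 rows of the array table. For the 5 genes with 2 rows the brighter row over all arrays was used. The cells were the PU.1low URE-/- line, in which an enhancer upstream of Spi1 (the URE) is deleted and PU.1 is low. Both groups carried this deletion. The DB2313 group had 330 nM of the compound for 24 h, and the vehicle group had an equal volume of water for 24 h. Both grew in medium with 10% serum, 15% supernatant of WEHI cells and 15% supernatant of BHK cells. Each group had 3 arrays, called biological replicates in the labels. All came from 1 line, and nothing in the labels says that cultures were started separately. The p-values therefore cover only the spread among these arrays, which may be technical.

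The respiratory chain sits in the inner mitochondrial membrane and passes electrons from NADH and succinate to oxygen. Complex I takes electrons from NADH and complex II from succinate. Both pass them to coenzyme Q, complex III moves them on to cytochrome c, and complex IV hands them to oxygen. Complexes I, III and IV pump protons, and ATP synthase uses the gradient. Most subunits are encoded in the nucleus and a few on the mitochondrial genome. Leukaemic progenitors are known to rely strongly on this chain. NRF1 and the ETS factor GABP are textbook regulators of its nuclear genes.

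The arrays of the 2 groups were much alike. The median signal lay between 5.12 and 5.14 on the DB2313 arrays and between 5.11 and 5.17 on the vehicle arrays (log2, over rows with 1 symbol). Pearson's r across genes was 0.996 within groups and 0.994 to 0.995 between them. Of 15 myeloid marker genes, 13 had a signal above the median of all genes. The pan-leukocyte marker Ptprc (3.31 with DB2313, 3.32 with vehicle) and the progenitor marker Cd34 (4.63 with DB2313, 4.59 with vehicle) did not. Signals above that median were found for 0 of 6 B cell, 0 of 4 T cell, 2 of 3 erythroid and 2 of 8 fibroblast markers. None of these passed the test between groups. The myeloid markers went both ways, with 8 of the 15 above 0 with DB2313 and 7 below, and only 1 passed. This was the myeloid factor Gfi1, which rose by 0.54 on the log2 scale (limma adjusted p = 0.00464). Fcgr3, with the next smallest p, had -0.29 (limma adjusted p = 0.168). In RNA from a whole culture, fewer cells of a kind and less RNA per cell cannot be told apart.

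No respiratory chain gene passed the test with DB2313. In limma, 0 of 71 members had an adjusted p under 0.05, beside 1.81% of all genes (401 of 22180, with 1.02% higher and 0.789% lower). Without adjustment 3 members had a p under 0.05, which is 4.23% of them, beside 12.7% of all genes. These were Ndufb3, an accessory subunit of complex I, Uqcrc1, a core protein of complex III, and Uqcrh-ps1, a pseudogene of a complex III subunit. All 3 were higher with DB2313. Among genes at or above the median signal, such a p was found for 3.28% of members and 17.6% of all genes. The median log2 difference of the members was 0.03, against -0.0024 for all genes, with 46 members above 0 and 25 below. That is 64.8% above 0, beside 49.1% of all genes.

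The intervals were narrow for most members. The 95% interval of the difference lay within 1.5-fold in either direction for 69 of the 71 members (97.2%, against 95.4% of all genes). The exceptions were Ndufb3 and Uqcrh-ps1. It lay within 1.2-fold for 51 members (71.8%, against 41.3% of all genes). Brighter rows vary less, so genes at or above the median signal were also compared with each other, and there the shares within 1.2-fold were 77.0% of 61 members and 50.7% of all genes. The DB2313 values lay wholly above or below the vehicle values for 10 members, 7 higher and 3 lower. That is 14.1% of them, beside 19.3% of all genes (9.75% higher and 9.55% lower). At or above the median signal it was 14.8% of members and 28.2% of all genes.

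**Figure D1:**
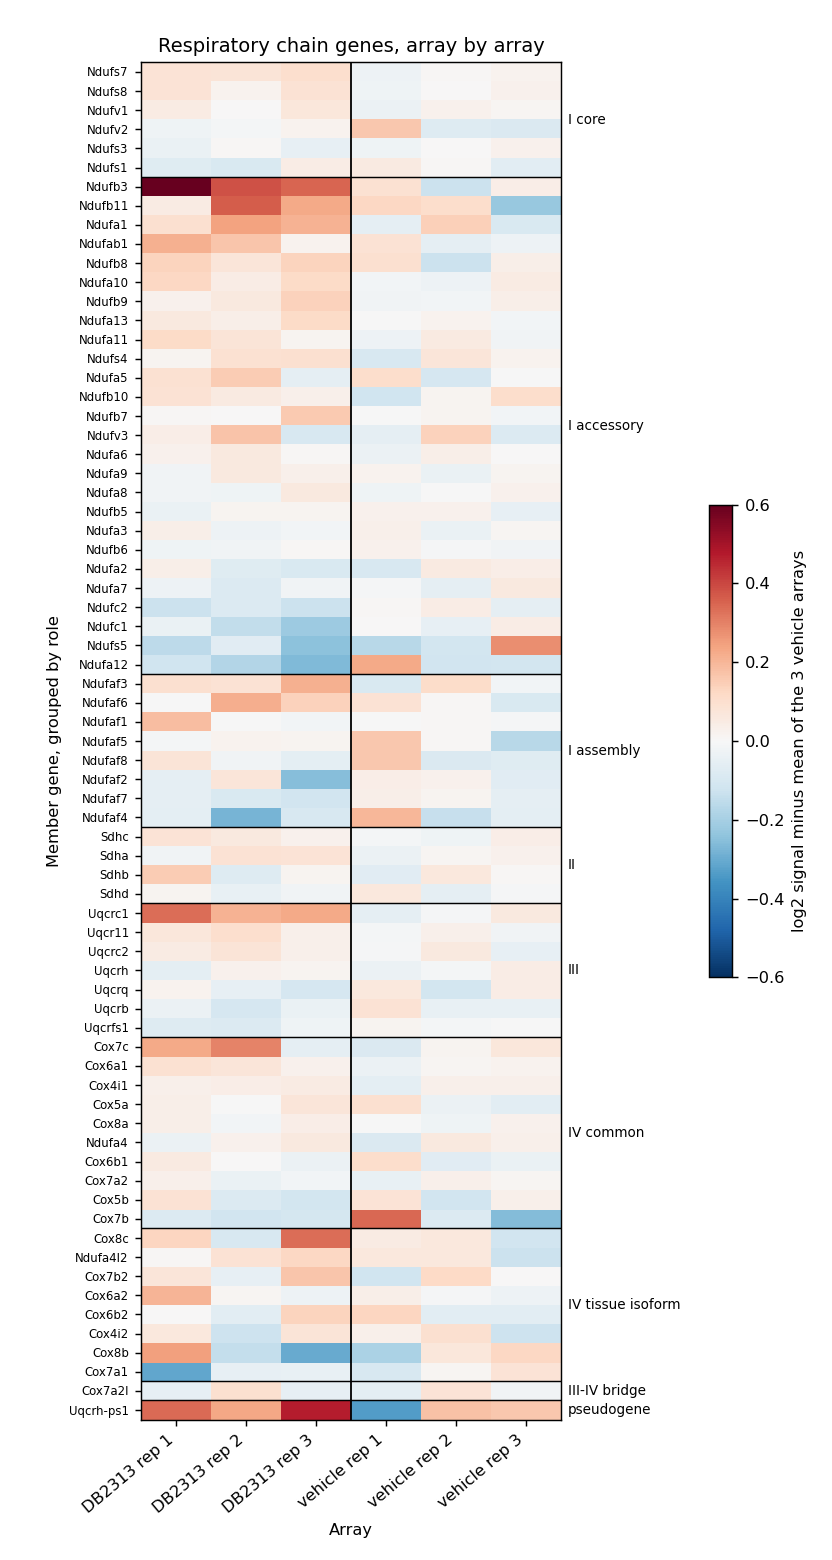
Log2 signal of each of the 71 members (rows, grouped by role) on each array (columns, DB2313 then vehicle), as the difference from the mean of the 3 vehicle arrays. Red is higher and blue lower. Ndufb3, Uqcrc1 and the dim pseudogene Uqcrh-ps1 are red on all 3 DB2313 arrays, and most other rows stay pale on all 6 arrays.

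Ndufb3 had the largest difference of all members. Its protein is a small accessory subunit of the membrane arm of complex I. The log2 signal was 8.725, 8.509 and 8.479 on the DB2313 arrays, against 8.219, 7.999 and 8.166 on the vehicle arrays. Every DB2313 array was above every vehicle array. The means were 8.57 ± 0.13 with DB2313 and 8.13 ± 0.11 with vehicle (SD, n = 3 each). The difference of 0.44 (1.36-fold, SE 0.09, interval 0.23 to 0.66) had an unadjusted p of 0.00152 and did not pass over all genes (limma adjusted p = 0.0693). It passed in 3 of the 8 alternatives that kept all arrays (adjusted p = 0.0212 over the brighter part of the genes, 0.0326 with an offset of 32, 0.00549 with a trended and robust prior) and in none of the 6 that left out 1 array (0.130 to 0.189).

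Uqcrc1 had the next largest difference among the protein-coding members. Its protein is a large core protein of complex III that faces the matrix. The log2 signal was 11.106, 10.981 and 10.998 on the DB2313 arrays, against 10.718, 10.766 and 10.829 on the vehicle arrays. The groups did not overlap. The difference of 0.26 (1.195-fold, SE 0.07, interval 0.10 to 0.41) had an unadjusted p of 0.00495 and did not pass (limma adjusted p = 0.138). It passed in the same 3 alternatives as Ndufb3 (adjusted p = 0.0366 with the filter, 0.0285 with the offset, 0.00408 with the trended prior) and in none with 1 array left out (0.196 to 0.329).

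**Figure D2:**
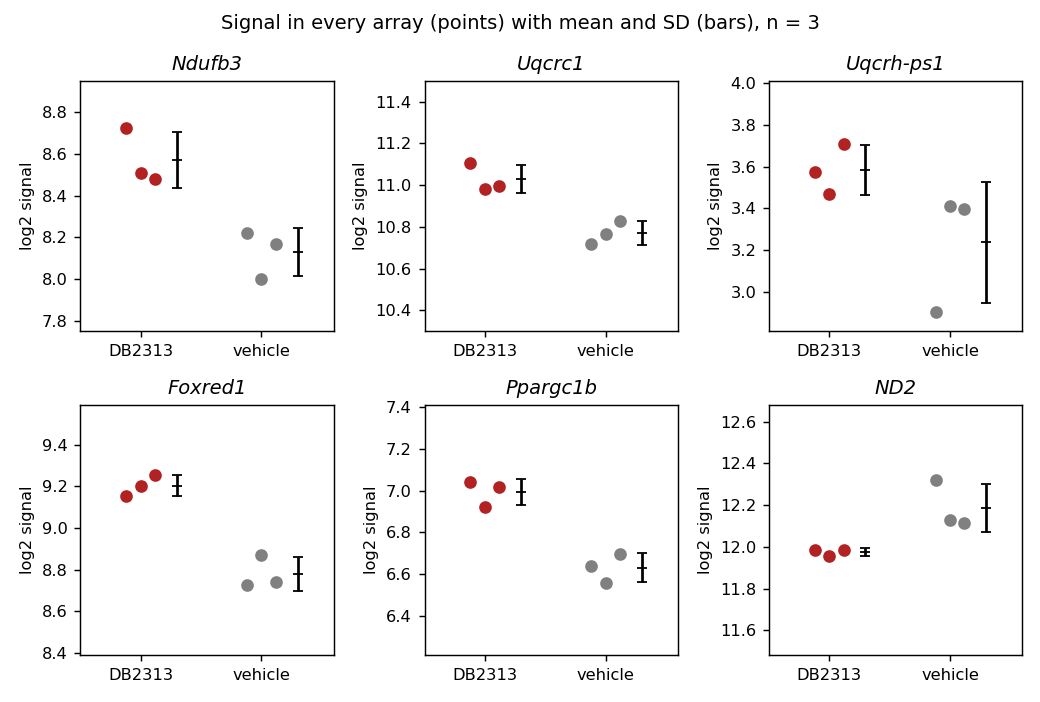
Log2 signal on each array (points) with the mean and SD (bars, n = 3) for DB2313 (red) and vehicle (grey) in 6 genes. Each vertical axis spans the same width around the gene's own mean and does not start at 0. The groups are apart in all 6 genes, by the least in Uqcrh-ps1, where vehicle replicate 1 lies far below the others.

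The promoters of these genes and of 2 others are shown, since the respiratory chain genes are known targets of NRF1 and of ETS factors, the family of PU.1. Each window runs from 250 bases before to 50 after a gene's start in RefSeq (build GRCm38.p6). Capitals mark matches on either strand to a short form of the NRF1 site (GCGC, any base, then TGCGC) or to CCGGAAG, a form of the site shared by many ETS factors. Ndufb3 is at chr1:58586147-58586446 (plus strand), Uqcrc1 at chr9:108936398-108936697 (plus strand), Sdha at chr13:74350191-74350490 (minus strand) and Ndufs3 at chr2:90904672-90904971 (minus strand). The first pair had the largest differences with DB2313 among the protein-coding members, and Sdha and Ndufs3 are shown because their windows hold 3 NRF1 and 2 ETS matches.
Ndufb3: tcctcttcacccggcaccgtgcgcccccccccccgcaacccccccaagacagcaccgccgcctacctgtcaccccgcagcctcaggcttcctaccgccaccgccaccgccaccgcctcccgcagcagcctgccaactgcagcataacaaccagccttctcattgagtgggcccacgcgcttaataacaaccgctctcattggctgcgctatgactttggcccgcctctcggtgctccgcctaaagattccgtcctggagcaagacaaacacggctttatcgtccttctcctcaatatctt
Uqcrc1: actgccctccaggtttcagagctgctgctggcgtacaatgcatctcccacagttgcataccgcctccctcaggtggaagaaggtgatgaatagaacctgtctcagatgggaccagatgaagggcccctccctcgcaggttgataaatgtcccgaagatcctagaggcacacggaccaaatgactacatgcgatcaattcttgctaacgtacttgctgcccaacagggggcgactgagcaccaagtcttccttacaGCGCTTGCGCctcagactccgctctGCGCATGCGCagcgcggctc
Sdha: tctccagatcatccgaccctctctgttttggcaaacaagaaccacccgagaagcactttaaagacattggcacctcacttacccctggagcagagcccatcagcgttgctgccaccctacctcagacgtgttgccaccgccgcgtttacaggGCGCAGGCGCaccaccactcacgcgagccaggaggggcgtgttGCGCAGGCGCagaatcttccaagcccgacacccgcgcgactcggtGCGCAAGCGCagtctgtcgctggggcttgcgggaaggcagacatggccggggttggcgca
Ndufs3: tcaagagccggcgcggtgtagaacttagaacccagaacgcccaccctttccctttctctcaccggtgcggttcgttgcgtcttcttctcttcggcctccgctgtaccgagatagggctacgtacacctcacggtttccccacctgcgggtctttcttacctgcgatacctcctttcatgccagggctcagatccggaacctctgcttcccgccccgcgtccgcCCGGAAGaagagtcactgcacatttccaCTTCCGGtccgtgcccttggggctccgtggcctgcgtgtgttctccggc

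The window of Uqcrc1 held 2 NRF1 matches, starting 6 and 31 bases into the transcript, while that of Ndufb3 held no match to either motif. The shares of windows with a match are given as a description, with no test. A match to the NRF1 form was found in 12 of 59 member windows (20.3%), against 6.48% of the 20520 windows of genes measured on these arrays and 4.60% of all 32851 windows. For CCGGAAG the share was 22.0% of member windows (13 of 59), against 11.4% of the windows of measured genes and 8.86% of all. The letters GAGGAAGT, a form of the PU.1 site, were found in 2 of 59 member windows (3.39%), against 2.97% of the windows of measured genes and 3.20% of all. The PU.1 and ETS forms share the letters GGAAG but differ in the bases before them, so no single GGAAG matches both. The 59 windows belong to 57 members, and the other 14 members were matched to no window.

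The difference between DB2313 and vehicle had nearly the same median in members with and without an NRF1 or ETS match. The median log2 difference was 0.03 for the 11 members with an NRF1 match and 0.02 for the 46 without. It was 0.02 for the 13 members with an ETS match, whose differences ran from -0.03 to 0.07, and 0.02 for the 44 without. Only 2 members had a PU.1 form, Ndufa5 (0.06) and Ndufs4 (0.07). Their median was 0.07, against 0.02 for the 55 without it. A match is a run of letters and not evidence of binding.

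The nuclear-encoded core subunits of complex I, which carry out electron transfer, were at nearly the same signal in both groups. Of 6 measured, 0 passed, 3 were above 0 and 3 below, and the differences ran from -0.04 to 0.09 with a median of 0.02. All 6 intervals lay within 1.2-fold. Among the subunits that take electrons from NADH, Ndufv1, which binds NADH, had 0.04, Ndufv2 -0.0054 and Ndufs1, with several iron-sulfur clusters, -0.04. Of those nearer the coenzyme Q site, Ndufs7 had 0.09, Ndufs8 0.06 and Ndufs3 -0.03. The mitochondrially encoded core subunits, ND1 to ND6 and ND4L, are no members and are counted in a list below. Their differences ran from -0.21 (ND2) to 0.02 (ND3) and none passed. The intervals of ND1, ND2 and ND6 reached beyond 1.2-fold.

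Ndufs7, an iron-sulfur protein next to the coenzyme Q site, was the only nuclear-encoded core subunit measured whose groups did not overlap. Its signal was 10.72, 10.71 and 10.74 with DB2313, against 10.61, 10.64 and 10.66 with vehicle. The groups were close together and each was tight. The difference of 0.09 (SE 0.06, interval -0.04 to 0.22) had a limma adjusted p of 0.599.

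The accessory subunits of complex I, which surround the core and are needed for assembly and stability, ranged more widely. Of 26 measured, 17 were above 0 and 9 below, with a median of 0.05 and a range from -0.19 to 0.44. None passed, and 18 of the 26 intervals lay within 1.2-fold. After Ndufb3, the largest differences above 0 were those of Ndufb11 (0.21) and Ndufa1 (0.18), both X-linked membrane arm subunits, and of Ndufab1 (0.13), the mitochondrial acyl carrier protein, which also serves fatty acid synthesis. Their limma adjusted p values were 0.533, 0.418 and 0.538.

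After Ndufb3, Uqcrc1 and Uqcrh-ps1, Ndufa1 had the smallest unadjusted p of all members. Its signal was 8.48, 8.63 and 8.59 on the DB2313 arrays, against 8.33, 8.53 and 8.30 on the vehicle arrays. Vehicle replicate 2 reached above DB2313 replicate 1, so the groups overlapped. The interval ran from -0.01 to 0.37.

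The largest differences below 0 in this class were those of Ndufa12 (-0.19), Ndufs5 (-0.16), Ndufc1 (-0.13) and Ndufc2 (-0.11). Ndufa12 lies where the matrix arm is completed, and the other 3 are subunits of the membrane arm. Ndufa12 had 7.07, 7.01 and 6.92 with DB2313, against 7.41, 7.07 and 7.08 with vehicle. The groups just failed to touch, and vehicle replicate 1 was far above the rest. Without that array the difference was -0.07. The second, dimmer row of Ndufa12 gave -0.15. Ndufc2 had 9.02, 9.07 and 9.02 with DB2313, against 9.16, 9.20 and 9.10 with vehicle, again without overlap (interval -0.25 to 0.02, limma adjusted p = 0.490).

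Of the other accessory subunits, Ndufb8 had 0.11, Ndufa10 0.10 and Ndufb9 0.07. Ndufa13, also known as GRIM-19, had 0.07 and its groups did not overlap (8.28, 8.25 and 8.33 with DB2313, against 8.22, 8.24 and 8.20 with vehicle). The groups were close together. Ndufa8 (0.0036), Ndufb5 (-0.0013) and Ndufa3 (-0.0035) lay closest to 0.

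The assembly factors of complex I help build the complex and are not part of the finished enzyme. Of 8 measured, 0 passed, 5 were above 0 and 3 below, with a median of 0.0045, and 4 intervals lay within 1.2-fold. Ndufaf3 (0.13) and Ndufaf4 (-0.14), which work together on the matrix arm, lay at opposite ends of the class. Ndufaf4 had 7.94, 7.72 and 7.90 with DB2313, against 8.20, 7.86 and 7.94 with vehicle, and without vehicle replicate 1 its difference was -0.04. Ndufaf6 had 0.12 and Ndufaf1, which acts on the membrane arm, 0.05.

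The remaining assembly factors had differences from -0.09 to 0.0089. Ndufaf5, which hydroxylates Ndufs7, had 0.0089, and its partner Ndufaf8 had 0.0001. Ndufaf7, a methyltransferase, had -0.09. Ndufaf2, a paralogue of Ndufa12, had -0.08. The smallest limma adjusted p of the 8 was 0.543, that of Ndufaf3.

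Complex II, the succinate dehydrogenase shared with the TCA cycle, was measured through all 4 of its subunits and 0 passed. The flavoprotein Sdha had 9.79, 9.90 and 9.89 with DB2313, against 9.77, 9.82 and 9.84 with vehicle, a difference of 0.05. The iron-sulfur subunit Sdhb had 0.03, and the membrane anchors Sdhc and Sdhd had 0.06 and -0.02. The values of the groups overlapped for each subunit. All 4 intervals lay within 1.2-fold.

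Complex III gave differences of both signs. Of its 7 genes among the members, Uqcrc1 included, 0 passed, 3 were above 0 and 4 below, with a median of -0.0042. Uqcrc1 was the only one of the 7 whose interval reached beyond 1.2-fold. Cyc1 and CYTB, also subunits of this complex, fall outside the symbol rule and are counted in the lists below. Cyc1 had -0.12 (interval -0.29 to 0.05, limma adjusted p = 0.555), beyond 1.2-fold, and its groups did not overlap. CYTB had -0.07 (interval -0.25 to 0.10), and its groups overlapped. Uqcrc2, the partner of Uqcrc1 in the core, had 9.93, 9.96 and 9.91 with DB2313, against 9.88, 9.94 and 9.83 with vehicle. Its groups overlapped, and its difference was 0.05 (interval -0.09 to 0.19), against 0.26 for Uqcrc1. Whether the 2 core proteins differ in response was not tested.

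The catalytic Rieske iron-sulfur protein gene Uqcrfs1 went the other way from Uqcrc1. It had 6.62, 6.62 and 6.67 with DB2313, against 6.71, 6.69 and 6.70 with vehicle. The groups did not overlap, though the difference was only -0.06 (interval -0.19 to 0.07, limma adjusted p = 0.730). Among the small subunits, Uqcr11 had 0.07, the hinge protein gene Uqcrh -0.0042, Uqcrq -0.04 and Uqcrb -0.06.

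Uqcrh-ps1, named as a pseudogene of Uqcrh, was the only pseudogene among the members. It had 3.58, 3.47 and 3.71 with DB2313, against 2.90, 3.41 and 3.40 with vehicle. The groups were separated by a narrow gap, and vehicle replicate 1 was far below the other arrays. The difference of 0.35 (SE 0.14, limma adjusted p = 0.371) was 0.18 without that array. Adding 32 to every linear value, which damps dim rows, gave 0.08. This row was among the dim ones, and whether its probes also match Uqcrh was not checked.

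Nuclear-encoded complex IV subunits found in most tissues, with Ndufa4 counted here as it is now assigned to this complex, gave mostly small differences. Of 10 genes, 0 passed, 7 were above 0 and 3 below, with a median of 0.02. The interval lay within 1.2-fold for 8 of them, and the exceptions were Cox7c (-0.08 to 0.39) and Cox7b (-0.43 to 0.23). Cox4i1 had 9.38, 9.39 and 9.40 with DB2313, against 9.29, 9.38 and 9.38 with vehicle. Cox6a1 had 12.42, 12.41 and 12.36 with DB2313, against 12.30, 12.34 and 12.36 with vehicle. In both genes the groups were only just apart, with differences of 0.04 and 0.06. Cox5a, which lies on the matrix side, had 0.04, Cox8a 0.02, Ndufa4 0.02, Cox6b1 0.0079, Cox7a2 -0.0091 and Cox5b -0.04.

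The widest differences of this class were Cox7c (0.16) and Cox7b (-0.10), both small membrane subunits. Cox7c had 4.94, 5.01 and 4.66 with DB2313, against 4.62, 4.73 and 4.78 with vehicle, on a row below the median signal of all genes. The groups overlapped. Cox7b had 9.52, 9.48 and 9.49 with DB2313, against 9.94, 9.51 and 9.34 with vehicle. Here the vehicle arrays spread over a wider range than the 2 groups were apart, and without vehicle replicate 1 the difference was 0.07.

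Complex IV isoforms replace common subunits in certain tissues. Of the 8 isoform genes measured, 0 passed, 6 were above 0 and 2 below, with a median of 0.04, and 4 intervals lay within 1.2-fold. Of the forms typical of heart and skeletal muscle, Cox7a1 had 5.67 ± 0.15 with DB2313 and 5.81 ± 0.09 with vehicle (SD, n = 3 each, difference -0.14). Cox6a2 had a difference of 0.06 and Cox8b -0.07. Of the forms typical of testis, Cox8c had 0.12, Cox7b2 0.06 and Cox6b2 0.03.

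Cox4i2, the lung form, had 0.0064, and Ndufa4l2, a gene induced by low oxygen, had 0.07. The row of Cox7b2, at 2.58 with DB2313 and 2.52 with vehicle, was the dimmest of all members, and that of Cox6a1 the brightest. Background was not measured, so whether these isoforms were expressed at all cannot be read from the signals. Cox7a2l, which joins complexes III and IV in supercomplexes, had 7.20, 7.35 and 7.20 with DB2313, against 7.19, 7.33 and 7.22 with vehicle, a difference of 0.0004.

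**Figure D3:**
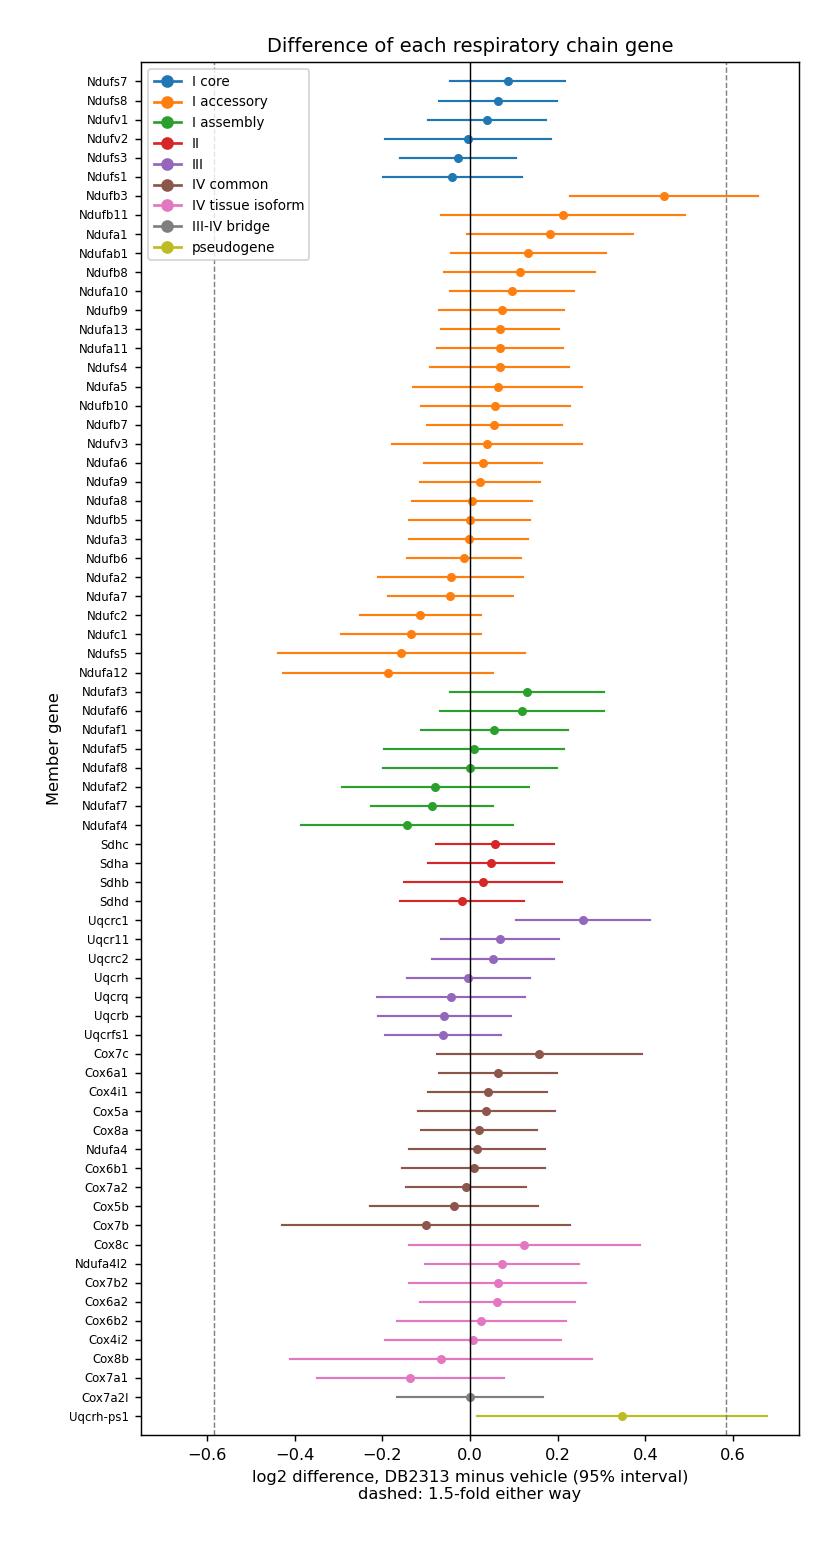
Log2 difference, DB2313 minus vehicle, for each of the 71 members (points) with its 95% interval (lines), coloured by role; dashed lines mark 1.5-fold either way. The intervals of Ndufb3, Uqcrc1 and Uqcrh-ps1 are the 3 that leave out 0, and those of Ndufb3 and Uqcrh-ps1 cross a dashed line.

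The median SD within groups was 0.07 over the members and 0.10 over all genes. Among genes at or above the median signal it was 0.064 over the members and 0.079 over all genes. Counting both ends, vehicle replicate 1 held the extreme value of the 6 arrays most often, with the highest value for 16 members and the lowest for 20. Over all genes this array was the highest for 15.6% and the lowest for 20.6%. DB2313 replicates 1, 2 and 3 held the highest value for 14, 13 and 17 members, while vehicle replicates 2 and 3 did so for 4 and 7. The number of members above 0 was 48 without vehicle replicate 1 and 41 without vehicle replicate 3.

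Of the other genes of this pathway, 2 of 120 passed, a share close to the 1.81% of all genes called in either direction. Both were higher with DB2313, as were 1.02% of all genes. These lists hold ATP synthase, other assembly factors, cytochrome c and coenzyme Q genes, mitochondrially encoded genes, regulators of mitochondrial biogenesis and the TCA cycle. Foxred1, a flavin-dependent oxidoreductase needed to assemble complex I, rose by 0.42 (1.34-fold, SE 0.07, limma adjusted p = 0.0253). Its signal was 9.15, 9.20 and 9.26 with DB2313, against 8.73, 8.87 and 8.74 with vehicle. The groups were well apart. With 1 array removed it still passed only when that array was vehicle replicate 2 (adjusted p = 0.0457, against 0.0763 to 0.116 for the other 5). With the replicate number as a block the adjusted p was 0.0816.

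Ppargc1b, which encodes PGC-1beta, a coactivator of mitochondrial biogenesis, rose by 0.36 (1.29-fold, SE 0.07, limma adjusted p = 0.0455). Its signal was 7.04, 6.92 and 7.02 with DB2313, against 6.64, 6.56 and 6.70 with vehicle. The groups did not overlap. It no longer passed when any single array was removed (adjusted p between 0.0899 and 0.169), with the replicate block (0.0946) and after quantile normalization (0.0791).

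None of the other 19 biogenesis genes passed. Ssbp1, which coats single-stranded mitochondrial DNA, came nearest, with 7.997, 7.921 and 7.985 with DB2313 against 8.433, 8.227 and 8.188 with vehicle (difference -0.31, limma adjusted p = 0.134). The groups did not overlap. Ssbp1 passed with dim genes left out (limma adjusted p = 0.0415) and with a trended prior (0.0196), and in none with 1 array left out (0.154 to 0.335). Its difference was -0.24 without vehicle replicate 1, and -0.23 as the mean of the gene's rows. Ppargc1a, the better known relative of Ppargc1b, averaged 3.41 with DB2313 and 3.33 with vehicle, a dim row in both groups.

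ATP synthase, which makes ATP from the proton gradient, had 0 of 21 genes past the threshold and a median of 0.03. Atp5h, a stalk subunit, had the smallest p of these (difference 0.11, limma adjusted p = 0.472). None of 17 TCA cycle genes passed (median 0.03), with Dlst, of the oxoglutarate dehydrogenase complex, nearest at -0.12 (adjusted p = 0.469). Of 20 further complex IV assembly genes 0 passed (median -0.0067), with Lrpprc, a stabiliser of mitochondrial mRNA, nearest at 0.11 (adjusted p = 0.497).

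Of 10 assembly genes of complexes II and III, 0 passed (median 0.01), and Sdhaf1, which helps mature Sdhb, was nearest at 0.22 (limma adjusted p = 0.290). Of 14 cytochrome c and coenzyme Q genes, 0 passed (median -0.0062). Hccs, which attaches haem to cytochrome c, had the smallest p among them, at 8.63, 8.68 and 8.57 with DB2313 against 8.89, 8.79 and 8.81 with vehicle (difference -0.20, adjusted p = 0.218). The groups were apart. Hccs passed with an offset of 32 (adjusted p = 0.0483) and with the trended prior (0.0377).

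Of the mitochondrially encoded genes, 10 had a row with a single symbol, while rows naming COX2, ATP6 or ATP8 also named other genes and were not used. These 10 had 9 differences below 0, with a median of -0.06, and 0 passed. ND2 and ND1, subunits of complex I, were the nearest. ND2 had 11.99, 11.96 and 11.99 with DB2313, against 12.32, 12.13 and 12.12 with vehicle (difference -0.21, limma adjusted p = 0.274). ND1 had 12.37, 12.28 and 12.32 with DB2313, against 12.64, 12.47 and 12.44 with vehicle (difference -0.19, adjusted p = 0.336). In both the groups were apart and vehicle replicate 1 was the highest. Without that array 6 of the 10 were below 0 and the median was -0.0065. Both genes passed with the trended prior (adjusted p = 0.0258 for ND2 and 0.0445 for ND1). Apart from ND6, these rows averaged between 11.98 and 12.76 with DB2313, on a scale whose highest gene averaged 13.05.

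**Figure D4:**
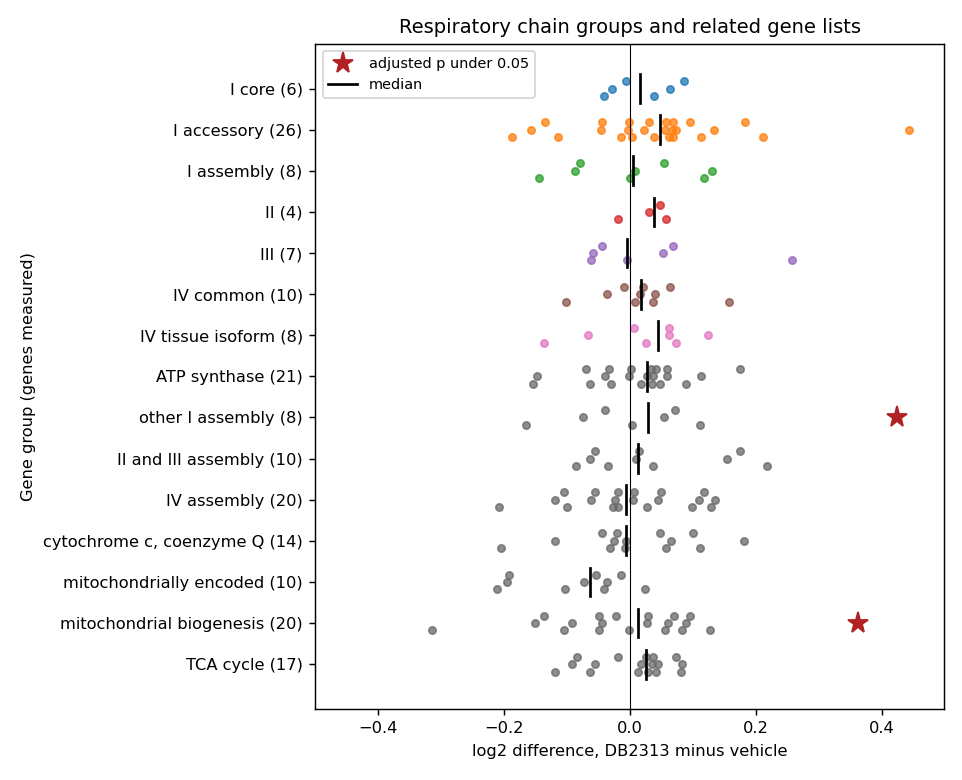
Log2 difference, DB2313 minus vehicle, of each gene (points) in 7 role classes of the respiratory chain and 8 related lists, with the median of each (black bar) and the number of genes in brackets. The stars, Foxred1 and Ppargc1b, are the 2 genes with an adjusted p under 0.05, and the medians of all groups lie between -0.06 and 0.05.

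A further 10 rows of the table named a respiratory chain gene together with another gene, so they were not counted as members. None of them passed when fitted with all rows, with differences from -0.18 to 0.13 and a smallest limma adjusted p of 0.509.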

How the data were processed

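RNA of 3 DB2313 and 3 vehicle samples was measured on Affymetrix arrays. RNA was extracted with RNeasy columns and labelled with biotin, per the labels' protocols. The authors used Affymetrix Expression Console, per the submitters' processing notes; its background correction, normalization and summarisation settings were not stated in what was read here. The deposited table has a log2 value for each row and array, the log base being judged from the range of values. An overall shift in RNA content between groups may not show in such values. Of 41345 rows, 23521 had 1 gene symbol in the platform annotation, 1814 had several and 16010 had no entry. The row with the highest mean was kept per gene, leaving 22180 genes. No 2 arrays held identical values, and the number of arrays limits the precision.

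The 2 groups were compared in R 4.3.3 with limma 3.58.1 (lmFit and eBayes, 2-sided, Benjamini-Hochberg over all genes at 0.05). The prior SD was 0.0972, on 3.61 degrees of freedom. Differences are log2 DB2313 minus vehicle, and intervals are at 95%. The test was tried on simulated data drawn from its own fitted model. These cannot show how it does on data that depart from that model, and differences as small as most members' were not simulated. The members, lists and alternatives were chosen with earlier results of these data known, so no set test was run. Named genes are all members of role classes of 11 or fewer, the 4 highest and 4 lowest of larger classes, members with an unadjusted p under 0.05, the brightest and dimmest, and, in each other list, the genes past the threshold or else the one with the smallest p; others (among them Ndufa10, Ndufb9, Ndufa13, Ndufa8, Ndufb5, Ndufa3, Ndufa5, Ndufs4, Ssbp1, Ppargc1a and ND1) were chosen after their values were seen. Promoter windows are RefSeq's (GRCm38.p6), matched by gene identifier. Alternatives were a filter at the median signal, a prior with trend and robust options, an added linear offset of 32, quantile normalization, centring of each array on its median, a replicate block, the mean of a gene's rows, all rows tested, and each array left out in turn.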

Additional observations from a re-analysis of the deposited data

How the results depend on the processing

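The count of respiratory chain genes past the threshold was 0 with all arrays and stayed 0 under quantile normalization, median centring, the replicate block, the mean of a gene's rows, all rows tested and each array left out. It was 2, Ndufb3 and Uqcrc1, under 3 alternatives. These were 2 of 61 members with the 11090 genes at or above the median signal. With an offset of 32 and with a trended and robust prior they were 2 of 71. The count over all genes was 401 of 22180. Under these 3 it was 799 of 11090, 830 of 22180 and 920 of 22180. It was 190 with the replicate block and 136 to 187 with 1 array left out, the lowest without DB2313 replicate 3. Of the other pathway genes 2 passed, against 1 after quantile normalization, 6 with the trended prior, 0 with the replicate block and 0 to 1 with 1 array left out. The members' median difference of 0.03 lay between 0.0216 and 0.0435 when 1 array was left out (without vehicle replicates 1 and 2). The block does not rest on a known pairing: deviations of samples with the same number had correlations of 0.02, 0.08 and 0.008, and not every sample correlated best with its own number. Of 71 members, 47 kept their sign under every alternative that could be fitted for them, and the 24 others lay within 0.101 of 0 with all arrays. The median filter left 61 members. The limits are the small number of arrays, the unmeasured background of dim rows, and the top of the scale for bright ones. The cause of each change in count was not tested.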
